A study of Homo sapiens with 40 samples.

Results

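The 33 genes described here are targets or partners of ATF4, the transcription factor of the amino acid stress response, measured in 10 human lymphoma cell lines treated with the EZH2 inhibitor GSK126. They were taken by name as 8 amino acid transporters, 10 amino acid and one-carbon enzymes, 11 stress factors, and 4 genes of secreted proteins, a surface receptor and tRNA export. The choice was made with earlier results of these data known, so shares set beside all genes describe the list and are no independent test. Each gene was represented by 1 of its 67 probe sets in all, the one with the highest mean log2(signal + pseudocount) over the 40 arrays, and 32 of the 33 were tested among 15211 genes, out of 19775 with a probe set of a single symbol. ALDH1L2, a mitochondrial folate enzyme, was not tested because its probe set lay above the array median on 0 arrays.

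The lines are established cultures of diffuse large B-cell lymphoma, a fast-growing cancer of the B lineage. DB, KARPAS-422, Pfeiffer, SU-DHL-4, SU-DHL-6, WSU-DLCL2 and SU-DHL-10 are labelled EZH2 mutant, with the allele not given in the sources used here, and HT, OCI-LY-19 and Toledo are labelled wild type. EZH2 is the methyltransferase of Polycomb repressive complex 2, which marks histone H3 at repressed genes, and GSK126 blocks its activity. Every line was kept for 72 h in 500 nM GSK126 or in 0.1% DMSO as vehicle, and each of the 20 groups has 2 arrays. The growth IC50 on the labels, a dose that inhibits growth, runs among the mutant lines from 28 nM (Pfeiffer) to 4828 nM (SU-DHL-4), with WSU-DLCL2 at 134 nM, KARPAS-422 at 232 nM, DB at 861 nM, SU-DHL-6 at 582 nM and SU-DHL-10 at 448 nM. Among the wild type lines HT has 516 nM, OCI-LY-19 has 1019 nM and Toledo has 13786 nM. Titles call the replicates biological without saying how cultures were separated, so p-values measure the spread between these arrays, which may be technical. For changes within a line, that spread was estimated for each gene over all 20 groups together. A gene therefore has the same standard error in every line, which is not the spread of that line's own arrays. A line is 1 culture and stands for itself, not for all tumours of its genotype.

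ATF4 is a basic leucine zipper protein whose mRNA is translated when stress kinases phosphorylate the initiation factor eIF2, a step that slows most other translation. With C/EBP partners it binds composite DNA elements and raises genes that import amino acids, make asparagine, serine and cysteine, feed mitochondrial folate metabolism and charge tRNAs. Because ATF4 is controlled largely at translation, its mRNA level on an array is not a measure of its protein or activity.

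The element bound by ATF4 with a C/EBP partner reads TGATGNAA, and it was searched on both strands of RefSeq promoter windows of GRCh38.p14, each running from 250 bases before to 50 bases after an annotated start. Of the 33 genes, 27 had a window and 9 of these (33.3%) held the element, against 1217 of 27305 genes (4.46%). The genes were taken by name as targets or partners of ATF4, so a higher share was built into the list and is no independent result. A gene counted if any of its windows matched, and genes differed in their number of windows. The cyclic AMP response element TGACGTCA was in 0 of the 27 and in 2.25% of genes. The 9 matches are shown because they mark which genes carry the element in this window. Each is 30 bases around the match, written 5′ to 3′ along the gene, with the element in capitals (its reverse complement where it lies on the opposite strand).
SLC3A2, chr11:62881719-62881748, plus strand: gtaatgtgcaggactccTTACATCAgctcc
SLC7A1, chr13:29595663-29595692, minus strand: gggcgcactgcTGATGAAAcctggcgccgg
SLC1A5, chr19:46784893-46784922, minus strand: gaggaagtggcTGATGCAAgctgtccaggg
SLC1A4, chr2:64989381-64989410, plus strand: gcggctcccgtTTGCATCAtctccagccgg
ASNS, chr7:97872458-97872487, minus strand: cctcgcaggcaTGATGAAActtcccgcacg
ATF3, chr1:212565205-212565234, plus strand: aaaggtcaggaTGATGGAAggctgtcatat
CEBPG, chr19:33374060-33374089, plus strand: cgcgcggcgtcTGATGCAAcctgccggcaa
JDP2, chr14:75427995-75428024, plus strand: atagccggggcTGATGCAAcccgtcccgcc
CHAC1, chr15:40953251-40953280, plus strand: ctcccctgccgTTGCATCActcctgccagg
The matches of SLC7A1 and SLC3A2 lay 7 and 37 bases after the start. Those of SLC1A4, JDP2, CEBPG, ASNS and SLC1A5 lay 7, 16, 42, 68 and 97 bases before it, and those of ATF3 and CHAC1 lay 191 and 209 bases before it. SLC7A1 and ASNS shared the letters TGATGAAA, whereas SLC1A5, CEBPG and JDP2 held TGATGCAA, and SLC1A4 and CHAC1 held its reverse complement TTGCATCA. A match describes these letters in this window and is not a measured binding site. TRIB3, DDIT3, PSAT1 and the other 15 genes with a window had no match in it, which says nothing of elements elsewhere.

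The first question was how the 32 tested genes responded in each line. Falls were most frequent in the 5 lines with the lowest growth IC50. In WSU-DLCL2, 22 of the 32 fell and 0 rose, where 12.7% of all genes tested fell and 13.9% rose (limma, Benjamini-Hochberg adjusted p under 0.05). HT, a wild type line, followed with 21 fallen and 1 risen against backgrounds of 3% and 6.31%, and SU-DHL-10 had 19 fallen and 1 risen against 7.16% and 11%. KARPAS-422 had 17 fallen and 3 risen against 13.4% and 15.5%, and Pfeiffer, the most sensitive line, had 10 fallen and 2 risen against 9.93% and 14.6%. SU-DHL-6 had 6 fallen and 1 risen against 3.56% and 7.42%. SU-DHL-4 had 4 fallen and 0 risen against 0.454% and 2.14%. DB and OCI-LY-19 each had 0 fallen and 1 risen, against 0.618% and 2.5% in DB and 0.44% and 1.97% in OCI-LY-19. Toledo, the least sensitive line, had 0 in either direction against 0.0263% and 0.138%. At an unadjusted p under 0.05 in limma, WSU-DLCL2 had 0 rises (19.3% of all genes), SU-DHL-4 had 1 rise (8.23%), DB had 4 falls (5.36%), OCI-LY-19 had 0 falls (3.96%), and Toledo had 0 falls (2.05%) and 2 rises (4.64%). Over all lines this made 109 calls among 320 pairs of gene and line, of which 99 were falls (30.9% of pairs, against 5.13% over all genes) and 10 were rises (3.13% against 7.55%). The 2 GSK126 arrays did not overlap the 2 DMSO arrays in 223 of the 320 pairs (69.7%), against 50.7% of pairs over all genes tested; all 109 called pairs were among them, which the call itself nearly fixes.

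The median change of the 32 genes was -0.79 on the log2 scale in WSU-DLCL2, -0.49 in SU-DHL-10, -0.44 in HT, -0.37 in KARPAS-422 and -0.23 in Pfeiffer. In the less sensitive lines it was -0.15 in SU-DHL-6, -0.08 in DB, -0.04 in OCI-LY-19, -0.19 in SU-DHL-4 and 0.01 in Toledo. The median of all genes tested lay between -0.00 (DB) and 0.07 (WSU-DLCL2). These changes are differences of log2(signal + 17.7), which understate the change of dim genes, and a value after ± is its standard error in limma. RNA came from whole cultures, so fewer cells of a kind and less RNA per cell cannot be told apart.

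Scaling the arrays to equal medians moved the median change of all genes by -0.23 (SU-DHL-10), -0.22 (WSU-DLCL2), -0.17 (SU-DHL-6), -0.15 (KARPAS-422), -0.14 (Pfeiffer) and -0.14 (Toledo). Under that scaling the genes fallen and risen were 27 and 0 in WSU-DLCL2, 22 and 0 in SU-DHL-10, 21 and 1 in HT, 21 and 2 in KARPAS-422, 14 and 1 in SU-DHL-6 and 13 and 1 in Pfeiffer. Of all genes tested, the shares then fallen and risen were 24.3% and 5.44% in WSU-DLCL2, 21.8% and 5.11% in SU-DHL-10, 2.25% and 3.33% in HT, 21.7% and 10.2% in KARPAS-422, 12.5% and 3.76% in SU-DHL-6 and 14.5% and 6.37% in Pfeiffer. None of the 109 called changes turned its sign under quantile normalization, and none of the 10 rises did at equal medians, a scaling that moved every line with a called fall downwards. Some counts rested on 1 array: HT had 14 called genes in place of 22 (9.32% of all genes were called in either direction) without HT DMSO replicate 1. SU-DHL-6 had 4 in place of 7 without SU-DHL-6 DMSO replicate 1 and 3 without SU-DHL-6 GSK126 replicate 2, and SU-DHL-4 had 1 in place of 4 (background 2.6%) without either SU-DHL-4 DMSO replicate 2 or SU-DHL-4 GSK126 replicate 2. The single call of DB was lost without DB DMSO replicate 1 or DB GSK126 replicate 1, and that of OCI-LY-19 (background 2.41%) without OCI-LY-19 DMSO replicate 2 or OCI-LY-19 GSK126 replicate 1, leaving 0 in each case. Without DB DMSO replicate 2 or DB GSK126 replicate 2, DB had 2.

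**Figure D1:**
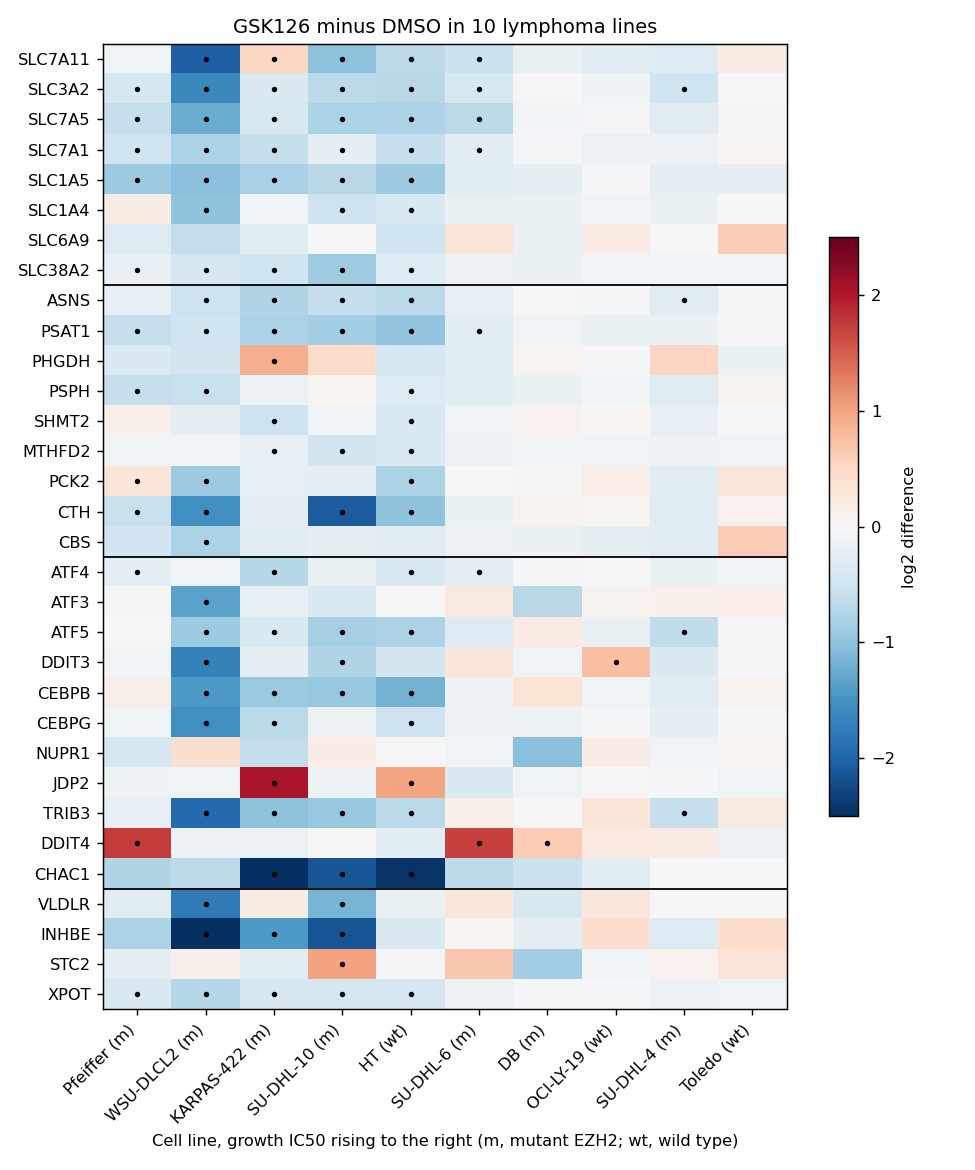
Change under GSK126 of each tested gene in each line, as the log2 difference of the means of 2 arrays a group. Columns are the 10 lines by rising growth IC50, black lines part the 4 gene groups, a dot marks an adjusted p under 0.05, and colours end at 2.5, which INHBE in WSU-DLCL2 (-3.04) and CHAC1 in KARPAS-422 (-2.72) pass. Blue fills the columns from WSU-DLCL2 to HT, and few dots appear from DB rightwards.

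The transporters had the highest share of falls of the 4 groups, 36 of 80 pairs (45%), with 1 rise. Enzymes fell in 26 of 90 pairs (28.9%) and rose in 2, stress factors fell in 27 of 110 (24.5%) and rose in 6, and the 4 genes of secretion, surface and tRNA export fell in 10 of 40 (25%) and rose in 1. The difference between the groups was not tested. By line, 7 of 8 transporters fell in WSU-DLCL2, SU-DHL-10 and HT, 5 in Pfeiffer and KARPAS-422, 4 in SU-DHL-6 and 1 in SU-DHL-4. Of 9 enzymes, 7 fell in HT, 6 in WSU-DLCL2, 4 in KARPAS-422 and SU-DHL-10, 3 in Pfeiffer, and 1 each in SU-DHL-6 and SU-DHL-4. Of 11 stress factors, 6 fell in WSU-DLCL2, KARPAS-422 and HT, 5 in SU-DHL-10, 2 in SU-DHL-4, and 1 each in Pfeiffer and SU-DHL-6. The median change of the transporters was -1.03 in WSU-DLCL2, -0.68 in SU-DHL-10 and -0.38 in Pfeiffer. For the enzymes it was -0.52, -0.25 and -0.35 in the same lines, and for the stress factors -0.92, -0.37 and -0.11. The 4 genes of secretion, surface and tRNA export had -1.24, -0.80 and -0.34, below the transporters in WSU-DLCL2 and SU-DHL-10. In KARPAS-422 the stress factors had the lowest median of the 4 groups, -0.61 against -0.37 for transporters, -0.22 for enzymes and -0.33 for the last group.

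**Figure D2:**
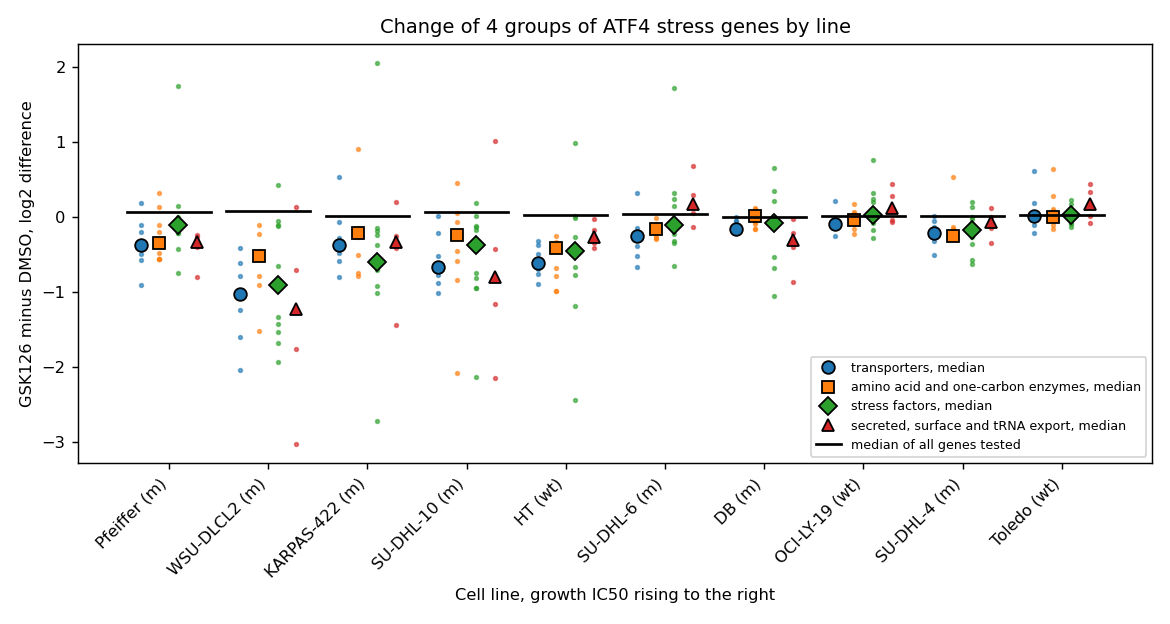
Log2 change under GSK126 of the 4 gene groups in 10 lines by rising growth IC50. Small points are genes, large symbols the group medians and black bars the median of all genes tested. Group medians lie farthest below the bars in WSU-DLCL2 (-1.24 for secretion, surface and tRNA export and -1.03 for transporters), and in Toledo they run from -0.01 (enzymes) to 0.17 (secretion, surface and tRNA export).

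Among the transporters, SLC3A2, the heavy chain that brings SLC7A11 and SLC7A5 to the cell surface, fell in 7 lines, the most of any of the 33 genes. Its MAS5 signals were 1189 and 1221 on the DMSO arrays and 860.3 and 919 on the GSK126 arrays in Pfeiffer, 2369 and 2554 against 839 and 754 in WSU-DLCL2, and 1014 and 1024 against 774 and 808 in KARPAS-422. They were 1229.9 and 1274 on the DMSO arrays and 798 and 779 on the GSK126 arrays in SU-DHL-10, 1381 and 1092 against 761 and 742 in HT, and 1485 and 1426 against 1131 and 1072 in SU-DHL-6. In the less sensitive lines they were 1211 and 1204 on the DMSO arrays and 1098 and 1321 on the GSK126 arrays in DB, 1162 and 1162 against 1068 and 1047 in OCI-LY-19, 1795 and 1669 against 1221 and 1206 in SU-DHL-4, and 1574 and 1679.9 against 1596 and 1658 in Toledo. WSU-DLCL2 had the highest vehicle signals, and its treated signals lay in the range of the other sensitive lines. The GSK126 arrays lay below both DMSO arrays in 8 lines and overlapped them in DB and Toledo. The change was -1.61 ± 0.09 in WSU-DLCL2, a 3.05-fold fall (limma, Benjamini-Hochberg adjusted p = 9.15e-14), and between -0.70 (HT) and -0.36 (KARPAS-422) in the other 6 called lines. OCI-LY-19 had -0.13 ± 0.09 and was not called (adjusted p = 0.646). The change in WSU-DLCL2 lay apart from the mean of the other 9 lines by -1.25 ± 0.09 (adjusted p = 6.23e-11).

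SLC7A5, the light chain for large neutral amino acids such as leucine, fell in 6 lines. Signals were 6336 and 6043 on the DMSO arrays and 4228 and 4046 on the GSK126 arrays in Pfeiffer, 6810.3 and 7324 against 3176 and 2761 in WSU-DLCL2, and 7069 and 6848 against 4911 and 5719 in KARPAS-422. They read 6279 and 5371 on the DMSO arrays and 3519 and 3211 on the GSK126 arrays in SU-DHL-10, 6734 and 4951 against 3343 and 3407 in HT, and 4062 and 3923 against 2698 and 2302 in SU-DHL-6. In DB and beyond they read 7215 and 7066 on the DMSO arrays and 6673 and 6994 on the GSK126 arrays in DB, 3238 and 3522 against 3245 and 3266 in OCI-LY-19, 6939.7 and 8129 against 6477 and 6036 in SU-DHL-4, and 4418 and 4078 against 3805 and 4591 in Toledo. The treated arrays were lower than both vehicle arrays in 8 lines and overlapped them in OCI-LY-19 and Toledo, and SU-DHL-6 started from a low vehicle level. Changes in the called lines ran from -1.25 ± 0.11 in WSU-DLCL2 (adjusted p = 1.47e-09) to -0.39 ± 0.11 in KARPAS-422 (adjusted p = 0.00769). The KARPAS-422 call was lost without KARPAS-422 DMSO replicate 1 (-0.37) or KARPAS-422 GSK126 replicate 1 (-0.28).

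SLC7A11, the light chain that imports cystine in exchange for glutamate, was called in both directions. It fell by 2.04 on the log2 scale in WSU-DLCL2, a 4.11-fold fall, with signals of 4227 and 3983 on the DMSO arrays and 1041 and 931 on the GSK126 arrays. Falls of -1.02 ± 0.17 in SU-DHL-10, -0.64 ± 0.17 in HT and -0.53 ± 0.17 in SU-DHL-6 were also called, the HT one not without HT DMSO replicate 1 (-0.46) or HT GSK126 replicate 1 (-0.56), and the SU-DHL-6 one not without SU-DHL-6 DMSO replicate 2 (-0.35) or either GSK126 array (-0.54 and -0.52). In KARPAS-422 it rose by 0.52 ± 0.17 (adjusted p = 0.0175), with signals of 934 and 949 on the DMSO arrays and 1409.7 and 1315 on the GSK126 arrays. This rise was not called with arrays at equal medians (0.35) or without either KARPAS-422 DMSO array or KARPAS-422 GSK126 replicate 1 (0.51, 0.53 and 0.47), and of the 2 other SLC7A11 probe sets the brighter changed by 0.32 and the dimmer by -0.08 there. The response in KARPAS-422 was 1.07 ± 0.18 above the mean of the other 9 lines (limma, adjusted p = 3.80e-05). This contrast includes the falls in those other lines and is no separate test of the rise.

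The other transporters, SLC6A9 excepted, fell in WSU-DLCL2, SU-DHL-10 and HT. SLC1A5, the glutamine and neutral amino acid exchanger, fell in 5 lines, with changes of -1.05 ± 0.13 in WSU-DLCL2, -0.91 ± 0.13 in Pfeiffer, -0.90 ± 0.13 in HT, -0.81 ± 0.13 in KARPAS-422 and -0.70 ± 0.13 in SU-DHL-10. SLC38A2, a sodium-coupled neutral amino acid importer, fell in the same 5 lines, most in SU-DHL-10 (-0.89 ± 0.06, adjusted p = 2.93e-11), where its fall was -0.66 ± 0.07 relative to the other 9 lines. Its falls were smaller elsewhere, between -0.49 (KARPAS-422) and -0.21 (Pfeiffer), the last not called without Pfeiffer DMSO replicate 1 (-0.17) or Pfeiffer GSK126 replicate 2 (-0.16), and HT not without HT DMSO replicate 1 (-0.20). SLC7A1, the cationic amino acid transporter for arginine and lysine, fell in 6 lines between -0.79 (WSU-DLCL2) and -0.22 (SU-DHL-10). Its probe sets disagreed: with the mean of all 5, the KARPAS-422 change went from -0.59 to -0.06 and the SU-DHL-6 change from -0.26 to 0.03, and neither was called. That mean includes a dim probe set, above the array median on 1 array, which changed by 0.40 in KARPAS-422 and 0.78 in SU-DHL-6. The other 3 changed by 0.08, -0.08 and -0.10 in KARPAS-422 and by -0.01, -0.30 and -0.04 in SU-DHL-6. The SU-DHL-10 call of SLC7A1, at a limma adjusted p of 0.0479, was lost without any 1 of the 4 arrays (-0.24 to -0.20). The SU-DHL-6 call was lost without SU-DHL-6 DMSO replicate 1 (-0.22) or either GSK126 array (-0.28 and -0.25). SLC1A4, an exchanger of alanine, serine and cysteine, fell in WSU-DLCL2 (-1.01 ± 0.09), SU-DHL-10 (-0.52 ± 0.09) and HT (-0.38 ± 0.09), the last not called without HT DMSO replicate 1 (-0.20) or HT GSK126 replicate 1 (-0.36). SLC6A9, the glycine transporter, lay above the array median on 4 arrays and was called in 0 lines, with changes between -0.61 and 0.61.

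Among the enzymes, PSAT1, which makes phosphoserine in serine synthesis, fell in 6 lines. Its signals were 8475 and 8249 on the DMSO arrays and 5207 and 6097 on the GSK126 arrays in Pfeiffer, 12934 and 11999 against 8874 and 8732 in WSU-DLCL2, and 7033 and 6400.2 against 4171 and 3608 in KARPAS-422. They were 12371 and 10719 on the DMSO arrays and 6605 and 6231 on the GSK126 arrays in SU-DHL-10, 10058 and 8702 against 4599 and 4795 in HT, and 4927 and 4889 against 3848 and 4231 in SU-DHL-6 in the next lines by IC50. The remaining lines gave 5336 and 5739 on the DMSO arrays and 5329.8 and 5032 on the GSK126 arrays in DB, 9232 and 8191 against 7841 and 7673 in OCI-LY-19, 12290.1 and 11708 against 11401 and 10009 in SU-DHL-4, and 1659 and 1773 against 1806 and 1522 in Toledo. Treated arrays lay below both vehicle arrays in 9 lines, and only in Toledo, whose vehicle signal was the lowest, did they overlap. The largest fall was -0.99 ± 0.09 in HT, 1.99-fold (adjusted p = 2.37e-08), where the response lay -0.61 ± 0.10 from the mean of the other 9 lines (adjusted p = 1.96e-04). Falls of -0.84 ± 0.09 in SU-DHL-10, -0.79 ± 0.09 in KARPAS-422, -0.57 ± 0.09 in Pfeiffer and -0.50 ± 0.09 in WSU-DLCL2 followed. The SU-DHL-6 change of -0.28 ± 0.09 had an adjusted p of 0.0482 and was not called when any 1 of its 4 arrays was left out (-0.35 to -0.21).

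ASNS, asparagine synthetase, fell in 5 lines. Signals were 5947 and 5573 on the DMSO arrays and 5049.5 and 4934 on the GSK126 arrays in Pfeiffer, 11879 and 10745 against 7975 and 7769 in WSU-DLCL2, and 8353 and 7751 against 4792 and 4720.2 in KARPAS-422. They were 11644 and 12087 on the DMSO arrays and 7992 and 7704 on the GSK126 arrays in SU-DHL-10, 9398 and 7439 against 5303 and 5100.4 in HT, and 8805 and 8806 against 7721 and 7524 in SU-DHL-6. Further lines had 6948 and 6102 on the DMSO arrays and 6662 and 6432 on the GSK126 arrays in DB, 3978 and 4239 against 4007 and 4055 in OCI-LY-19, 12091 and 13345 against 10871 and 9969 in SU-DHL-4, and 6152 and 6318 against 5926 and 6186 in Toledo. DB, OCI-LY-19 and Toledo overlapped between treatments, and the treated arrays were the lower ones in the other 7 lines. ASNS fell, with changes of -0.76 ± 0.08 in KARPAS-422, -0.68 ± 0.08 in HT, -0.60 ± 0.08 in SU-DHL-10 and -0.52 ± 0.08 in WSU-DLCL2 (adjusted p = 8.38e-09 to 6.27e-06). SU-DHL-4 had -0.29 ± 0.08 (adjusted p = 0.0366), not called without SU-DHL-4 DMSO replicate 2 (-0.22) or either GSK126 array (-0.35 and -0.22), nor with arrays at equal medians (-0.31). Pfeiffer had -0.21 ± 0.08 at an adjusted p of 0.0506.

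The other serine and folate enzymes were called in 3 lines or fewer. PHGDH, which opens serine synthesis from glycolysis, was called in 1 line, a rise of 0.90 ± 0.23 in KARPAS-422 from a dim vehicle level, with signals of 72.2 and 34.0 on the DMSO arrays and 107 and 112 on the GSK126 arrays. That rise was not called without KARPAS-422 DMSO replicate 2 (0.50). PSPH, which completes serine synthesis, fell in Pfeiffer (-0.57 ± 0.11), WSU-DLCL2 (-0.56 ± 0.11) and HT (-0.34 ± 0.11), the last not called when any 1 of its 4 arrays was left out (-0.40 to -0.29). With the mean of its 3 probe sets the Pfeiffer change was -0.23 and was not called. SHMT2, the mitochondrial serine hydroxymethyltransferase, fell in KARPAS-422 (-0.52 ± 0.09) and in HT (-0.38 ± 0.09), the HT call being lost without HT DMSO replicate 1 (-0.26) or HT GSK126 replicate 2 (-0.31). MTHFD2, which oxidises mitochondrial one-carbon units, fell in SU-DHL-10 (-0.45 ± 0.08), HT (-0.38 ± 0.08) and KARPAS-422 (-0.21 ± 0.08), where no call was made when any 1 of the 4 arrays was left out (-0.22 to -0.19).

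CTH and CBS convert homocysteine to cysteine. CTH fell in 4 lines, most in SU-DHL-10 with 3507 and 3359 on the DMSO arrays and 863 and 731 on the GSK126 arrays, a 4.25-fold fall (-2.09 ± 0.13, adjusted p = 1.11e-12). It fell, with changes of -1.53 ± 0.13 in WSU-DLCL2, -0.996 ± 0.13 in HT and -0.56 ± 0.13 in Pfeiffer. CBS fell in WSU-DLCL2 alone among called lines (-0.79 ± 0.21), with signals of 1854 and 1834 on the DMSO arrays and 1099 and 1019.9 on the GSK126 arrays, and with the mean of its probe sets this was -0.61 and was not called. PCK2, the mitochondrial phosphoenolpyruvate carboxykinase, fell in WSU-DLCL2 (-0.92 ± 0.12) and HT (-0.79 ± 0.12). In Pfeiffer it rose by 0.31 ± 0.12 (adjusted p = 0.0485), which was not called at equal medians (0.16) or without either Pfeiffer DMSO array (0.34 and 0.28) or Pfeiffer GSK126 replicate 1 (0.21).

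Among the stress factors, the mRNA of ATF4 itself fell in 4 lines. Its signals were 14558 and 13112 on the DMSO arrays and 8696 and 8172 on the GSK126 arrays in KARPAS-422 and 14389 and 12900.5 against 13188 and 12858 in WSU-DLCL2. Falls were called, with changes of -0.71 ± 0.07 in KARPAS-422, -0.38 ± 0.07 in HT, -0.23 ± 0.07 in SU-DHL-6 and -0.22 ± 0.07 in Pfeiffer, and in WSU-DLCL2, where the most targets fell, the change was -0.07 ± 0.07 (adjusted p = 0.590). The KARPAS-422 change stood -0.56 ± 0.08 from the mean of the other 9 lines (adjusted p = 3.10e-06). The Pfeiffer call was lost without Pfeiffer DMSO replicate 2 (-0.14) or either GSK126 array (-0.22 and -0.22). The SU-DHL-6 call was lost without SU-DHL-6 DMSO replicate 1 (-0.17) or either GSK126 array (-0.28 and -0.19).

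TRIB3, a pseudokinase induced by ATF4 that binds it, fell in 5 lines. Signals were 2103 and 2206 on the DMSO arrays and 2006 and 1718 on the GSK126 arrays in Pfeiffer, 10652 and 9004 against 2601 and 2477 in WSU-DLCL2, and 10328 and 8939.6 against 4258 and 5263 in KARPAS-422. They were 3776 and 3568 on the DMSO arrays and 1989 and 1801 on the GSK126 arrays in SU-DHL-10, 3895 and 2777 against 2142 and 1985 in HT, and 458 and 406 against 434 and 521 in SU-DHL-6. In the other lines they were 3373 and 3036 on the DMSO arrays and 3370.5 and 2990.0 on the GSK126 arrays in DB, 1164 and 1184 against 1441 and 1481 in OCI-LY-19, 6164 and 6417 against 4300.5 and 4099 in SU-DHL-4, and 1441 and 1621 against 1719 and 1840.0 in Toledo. WSU-DLCL2 and KARPAS-422 had the highest vehicle signals, and OCI-LY-19 and Toledo had both treated arrays above the vehicle arrays. The fall was -1.94 ± 0.12 in WSU-DLCL2, 3.84-fold (adjusted p = 2.31e-12), and -1.02 ± 0.12 in KARPAS-422, -0.67 ± 0.12 in HT, -0.95 ± 0.12 in SU-DHL-10 and -0.58 ± 0.12 in SU-DHL-4 in the other called lines. Without HT DMSO replicate 1 the HT value was -0.43 and was no longer called, and the SU-DHL-4 value was -0.55 without SU-DHL-4 DMSO replicate 2 and -0.55 without SU-DHL-4 GSK126 replicate 2, neither called. The response in OCI-LY-19, 0.31 ± 0.12 and not called by itself, lay 0.87 ± 0.13 above the mean of the other 9 lines (adjusted p = 8.23e-05).

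ATF5, a leucine zipper factor related to ATF4, fell in 5 lines and had the largest called change in SU-DHL-4. Its signals were 2232 and 2252 on the DMSO arrays and 2115 and 2355 on the GSK126 arrays in Pfeiffer, 3630.4 and 3538 against 1928 and 1856 in WSU-DLCL2, and 1907 and 1599.8 against 1272 and 1407 in KARPAS-422. They stood at 3344 and 3231 on the DMSO arrays and 1943 and 1759 on the GSK126 arrays in SU-DHL-10, 1979 and 1304 against 969 and 889 in HT, and 1661 and 1621 against 1446 and 1176 in SU-DHL-6. Elsewhere they were 4884 and 4425 on the DMSO arrays and 5329 and 5445 on the GSK126 arrays in DB, 941 and 943 against 815 and 848 in OCI-LY-19, 4698 and 5575 against 3522 and 3066 in SU-DHL-4, and 1621 and 1701 against 1674 and 1704 in Toledo. Both treated arrays were above the vehicle arrays in DB, Pfeiffer and Toledo overlapped, and the treated arrays were lower in the other 7 lines. ATF5 fell, with changes of -0.92 ± 0.12 in WSU-DLCL2, -0.82 ± 0.12 in SU-DHL-10, -0.78 ± 0.12 in HT, -0.64 ± 0.12 in SU-DHL-4 and -0.38 ± 0.12 in KARPAS-422 (adjusted p = 1.54e-06 to 0.0193). The SU-DHL-4 call was lost without SU-DHL-4 DMSO replicate 2 (-0.51) or SU-DHL-4 GSK126 replicate 2 (-0.54), and the KARPAS-422 call without KARPAS-422 DMSO replicate 1 (-0.25) or KARPAS-422 GSK126 replicate 1 (-0.31). Of the 3 other ATF5 probe sets, the brightest had the same sign in 5 of the 5 called lines, another in 4, and the dimmest, above the array median on 2 arrays, in 2. With the mean of all 4 the changes in KARPAS-422, SU-DHL-10, HT and SU-DHL-4 were -0.31, -0.31, -0.50 and -0.54, none of them called.

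CHAC1, which degrades glutathione, had the largest called change in KARPAS-422 and in HT. Signals were 363 and 364 on the DMSO arrays and 240.3 and 182 on the GSK126 arrays in Pfeiffer, 3059.5 and 2856 against 2125 and 1635 in WSU-DLCL2, and 1041 and 664 against 92.3 and 133 in KARPAS-422. They were 967 and 1040.2 on the DMSO arrays and 276 and 164 on the GSK126 arrays in SU-DHL-10, 2585 and 1382 against 352 and 313 in HT, and 119.7 and 95.8 against 96.4 and 37.5 in SU-DHL-6. The others were 116 and 66.1 on the DMSO arrays and 60.3 and 50.2 on the GSK126 arrays in DB, 33.2 and 62.2 against 21.6 and 52.1 in OCI-LY-19, 1339 and 1376 against 1568 and 1175 in SU-DHL-4, and 487 and 492 against 432 and 569.6 in Toledo. KARPAS-422, SU-DHL-10 and HT dropped from high to low signals, whereas SU-DHL-4, with a vehicle signal in the same range, overlapped between treatments. CHAC1 fell 6.61-fold in KARPAS-422 (-2.72 ± 0.33, adjusted p = 1.71e-07), 5.46-fold in HT (-2.45 ± 0.33) and 4.41-fold in SU-DHL-10 (-2.14 ± 0.33). WSU-DLCL2 had -0.66 ± 0.33 and was not called (adjusted p = 0.148).

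DDIT3, the factor CHOP, moved in opposite directions in WSU-DLCL2 and OCI-LY-19. Its signals were 374 and 427 on the DMSO arrays and 357 and 407 on the GSK126 arrays in Pfeiffer, 2424 and 2381 against 785 and 686 in WSU-DLCL2, and 445 and 593 against 437 and 426 in KARPAS-422. They were 635 and 777 on the DMSO arrays and 384 and 436 on the GSK126 arrays in SU-DHL-10, 598 and 609 against 407 and 466.3 in HT, and 194 and 239 against 237 and 311 in SU-DHL-6. Remaining signals were 437 and 368 on the DMSO arrays and 397 and 361 on the GSK126 arrays in DB, 158 and 148 against 313 and 233 in OCI-LY-19, 1599 and 1472 against 1271 and 1101 in SU-DHL-4, and 576 and 535 against 458 and 644 in Toledo. WSU-DLCL2 went from the highest vehicle signals to treated signals below those of SU-DHL-4, and OCI-LY-19, with the lowest vehicle signals, had both treated arrays above them. DDIT3 fell, with changes of -1.69 ± 0.16 in WSU-DLCL2 and -0.75 ± 0.16 in SU-DHL-10 and rose by 0.75 ± 0.16 in OCI-LY-19 (adjusted p = 0.00789), its only called gene of the 32. That rise was not called without OCI-LY-19 DMSO replicate 2 (0.71) or OCI-LY-19 GSK126 replicate 1 (0.55). Relative to the other 9 lines the response was -1.58 ± 0.17 in WSU-DLCL2 and 1.13 ± 0.17 in OCI-LY-19 (adjusted p = 1.28e-07 and 1.32e-04).

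DDIT4, an inhibitor of the growth kinase complex mTORC1, was the gene of the 33 that rose in the most lines. Signals were 1492 and 1400.4 on the DMSO arrays and 4917 and 4838 on the GSK126 arrays in Pfeiffer, 841 and 981 against 2973 and 3055 in SU-DHL-6, and 494 and 594 against 903 and 809 in DB. They were 9079 and 7973 on the DMSO arrays and 7958 and 7593 on the GSK126 arrays in WSU-DLCL2, 4132 and 3682 against 3685 and 3372 in KARPAS-422, and 10734 and 10148 against 10812 and 10204 in SU-DHL-10. Other lines gave 7389 and 4699.7 on the DMSO arrays and 4867 and 4908 on the GSK126 arrays in HT, 2237 and 3025 against 2902 and 3251 in OCI-LY-19, 6736 and 7304 against 8313 and 7820.2 in SU-DHL-4, and 689 and 723 against 570.1 and 718 in Toledo. DB, Pfeiffer, SU-DHL-4 and SU-DHL-6 had both treated arrays above the vehicle arrays, WSU-DLCL2 had them below, and the other 5 lines, Toledo among them, overlapped. DDIT4 rose 3.35-fold in Pfeiffer (1.74 ± 0.14, adjusted p = 2.70e-10), 3.27-fold in SU-DHL-6 (1.71 ± 0.14, adjusted p = 1.75e-09) and 1.56-fold in DB (0.64 ± 0.14, adjusted p = 0.00704). The DB rise was not called without DB DMSO replicate 1 (0.51) or DB GSK126 replicate 1 (0.56). Its response was above the mean of the other 9 lines by 1.51 ± 0.15 in Pfeiffer and 1.47 ± 0.15 in SU-DHL-6.

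The C/EBP partners fell together in 3 lines. CEBPB fell, with changes of -1.43 ± 0.14 in WSU-DLCL2, -0.95 ± 0.14 in SU-DHL-10, -1.19 ± 0.14 in HT and -0.92 ± 0.14 in KARPAS-422, its WSU-DLCL2 signals being 9278 and 9004 on the DMSO arrays and 3600.2 and 3161 on the GSK126 arrays. CEBPG fell, with changes of -1.54 ± 0.11 in WSU-DLCL2, -0.68 ± 0.11 in KARPAS-422 and -0.51 ± 0.11 in HT, the HT call being lost without HT DMSO replicate 1 (-0.35). ATF3, a stress-induced factor of the same family, fell in WSU-DLCL2 (-1.33 ± 0.23), with 368 and 359 on the DMSO arrays and 115 and 155 on the GSK126 arrays. Another ATF3 probe set, with a higher mean on the linear scale (213 against 169), changed by -2.37 there and by -1.25 in SU-DHL-10, where the one used had -0.37 ± 0.23 and was not called. JDP2, a zipper repressor of Jun partners, rose in KARPAS-422 from dim vehicle arrays, with 23.7 and 24.4 on the DMSO arrays and 105 and 225 on the GSK126 arrays (2.05 ± 0.29, adjusted p = 2.45e-06), the vehicle signals lying below the array medians, so that the size of the rise depends on the pseudocount. It rose in HT (0.98 ± 0.29), not called without either HT DMSO array (0.90 and 1.07) or HT GSK126 replicate 1 (0.80). NUPR1, a small stress-induced nuclear protein, lay above the array median on 18 arrays and was called in 0 lines, with changes from -1.05 (DB) to 0.42 (WSU-DLCL2).

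**Figure D3:**
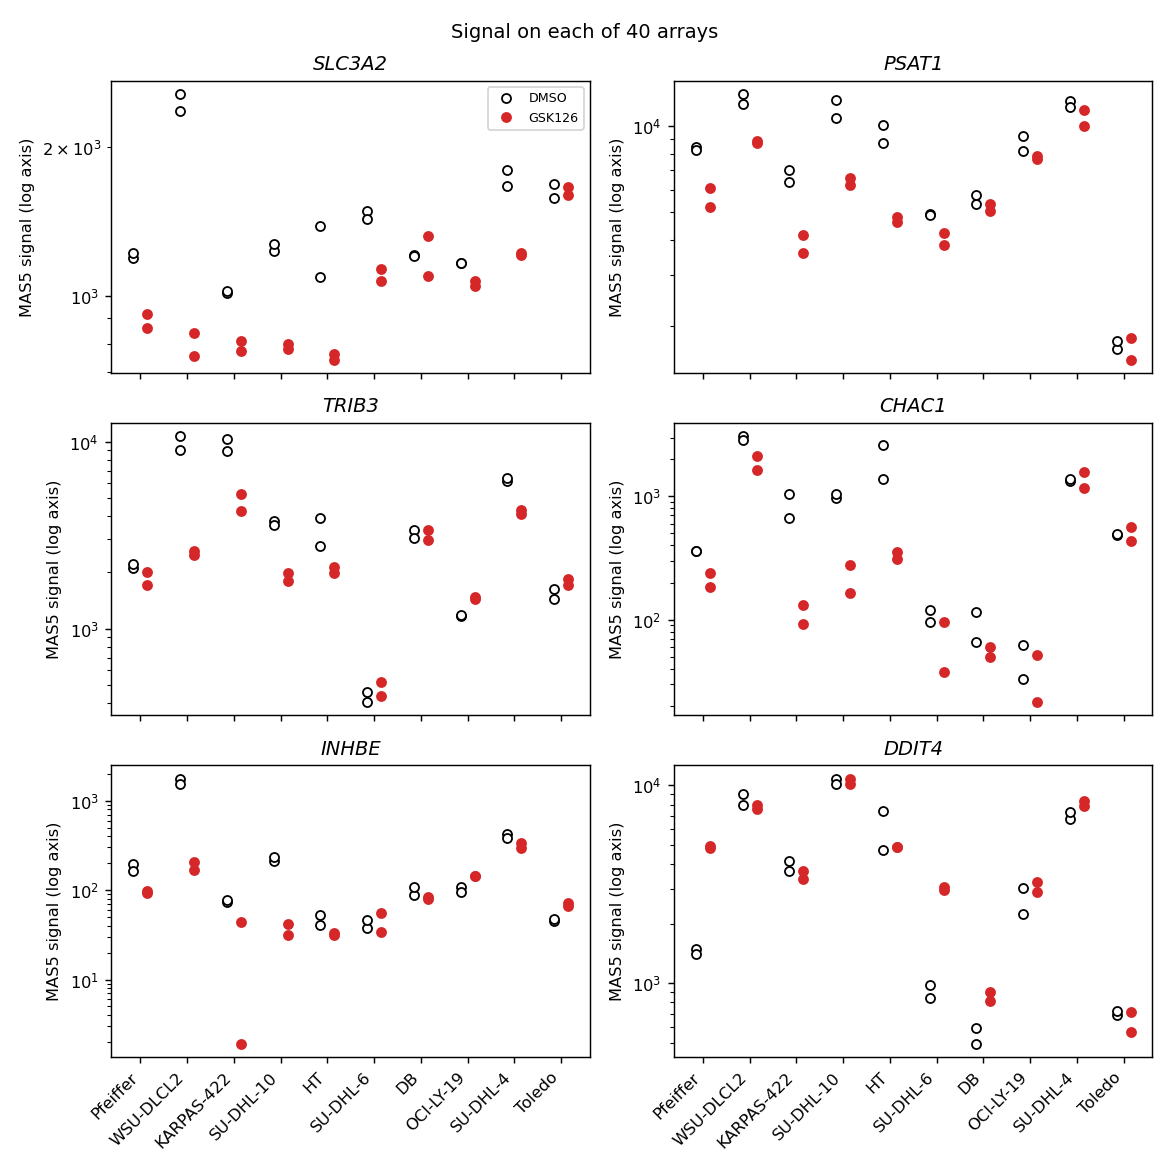
MAS5 signal on each of the 40 arrays for SLC3A2, PSAT1, TRIB3, CHAC1, INHBE and DDIT4, on log axes, with lines by rising growth IC50. Open circles are DMSO arrays and red circles GSK126 arrays. SLC3A2 in WSU-DLCL2 drops from 2369 and 2554 to 839 and 754, while DDIT4 in Pfeiffer climbs.

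XPOT, the exportin that carries tRNA out of the nucleus, fell in 5 lines. Signals were 4598 and 5418 on the DMSO arrays and 3433 and 4152 on the GSK126 arrays in Pfeiffer, 7962 and 8017 against 4952 and 4818 in WSU-DLCL2, and 5077 and 5256 against 3885 and 3857 in KARPAS-422. They were 7456 and 6560.2 on the DMSO arrays and 5083 and 5259 on the GSK126 arrays in SU-DHL-10, 6748 and 6507 against 4588 and 5338 in HT, and 7218 and 7457 against 6738 and 6539 in SU-DHL-6. Less sensitive lines had 5550.5 and 5838 on the DMSO arrays and 5459 and 5649.6 on the GSK126 arrays in DB, 8193 and 8139 against 7804 and 7991 in OCI-LY-19, 8944 and 9385 against 8196 and 8356 in SU-DHL-4, and 10567 and 11386 against 11017 and 9692 in Toledo. DB and Toledo overlapped, and in the other 8 lines the treated arrays were lower. XPOT fell, with changes of -0.71 ± 0.08 in WSU-DLCL2, -0.43 ± 0.08 in SU-DHL-10, -0.42 ± 0.08 in HT, -0.41 ± 0.08 in KARPAS-422 and -0.40 ± 0.08 in Pfeiffer (adjusted p = 1.10e-07 to 6.61e-04), and without HT GSK126 replicate 1 the HT value was -0.31 and was no longer called. INHBE, the inhibin beta E subunit, a secreted factor of the TGF-beta family, had the largest called change in WSU-DLCL2 and SU-DHL-10. Its signals were 197 and 162 on the DMSO arrays and 93.6 and 96.8 on the GSK126 arrays in Pfeiffer, 1769 and 1554 against 204 and 170.2 in WSU-DLCL2, and 74.2 and 78.5 against 1.90 and 43.6 in KARPAS-422. They were 213 and 234 on the DMSO arrays and 41.99 and 31.2 on the GSK126 arrays in SU-DHL-10, 53.3 and 40.2 against 33.5 and 31.2 in HT, and 37.9 and 45.8 against 34.1 and 54.8 in SU-DHL-6. The rest were 88.6 and 109 on the DMSO arrays and 79.6 and 84.0 on the GSK126 arrays in DB, 109.7 and 94.2 against 142 and 144 in OCI-LY-19, 427 and 385 against 334 and 295 in SU-DHL-4, and 44.7 and 47.9 against 66.1 and 71.7 in Toledo. WSU-DLCL2 stood far above the other lines under vehicle, and OCI-LY-19 and Toledo had treated arrays above the vehicle arrays. INHBE fell 8.20-fold in WSU-DLCL2 (-3.04 ± 0.30, adjusted p = 9.64e-09) and also in SU-DHL-10 (-2.16 ± 0.30, adjusted p = 4.83e-06), where the treated signals lay below the array medians, so that this size depends on the pseudocount. Its KARPAS-422 fall of -1.44 ± 0.30 rested on 1 very dim array: without KARPAS-422 GSK126 replicate 1 it was -0.62 and was not called. VLDLR, a lipoprotein receptor, fell in WSU-DLCL2 (-1.77 ± 0.24) and SU-DHL-10 (-1.17 ± 0.24). STC2, a secreted glycoprotein, was called only as a rise in SU-DHL-10 (1.01 ± 0.34, adjusted p = 0.0382), lost without SU-DHL-10 DMSO replicate 2 (0.35) or either GSK126 array (1.03 and 0.99) and at equal medians (0.81).

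Counted over lines, 26 of the 32 genes (81.3%) fell in at least 1 line, against 28.3% of all genes tested, and 10 (31.3%) in at least 5, against 0.999%. A rise in at least 1 line was called for 7 (21.9% against 38.0%), and SLC7A11, PCK2 and DDIT3 were called in both directions (9.38% against 9.09%). SLC6A9 and NUPR1 were called in neither. A set of 11 genes fell in each of HT, KARPAS-422, WSU-DLCL2 and SU-DHL-10: SLC3A2, SLC7A5, SLC7A1, SLC1A5, SLC38A2, ASNS, PSAT1, ATF5, CEBPB, TRIB3 and XPOT. That is 34.4% of the 32, against 0.651% of all genes tested that fell in the same lines. Of these, 7 also fell in Pfeiffer (21.9% of the 32, against 0.493% of all genes tested), namely 5 transporters, PSAT1 and XPOT. In Pfeiffer, ASNS, ATF5, CEBPB and TRIB3 had -0.21 ± 0.08, -0.01 ± 0.12, 0.14 ± 0.14 and -0.21 ± 0.12. This set was counted after its values were seen, and each line has arrays of its own.

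The next question was whether the lines differed in response. An F-test over the 10 lines called 29 of the 32 genes (limma, Benjamini-Hochberg adjusted), where it called 38.8% of all genes tested; SLC6A9, NUPR1 and STC2 were not called. When each line was set against the mean of the other 9, WSU-DLCL2 lay below for 20 genes and above for 0 (background 9.97% below and 8.28% above). SU-DHL-10 lay below for 14 and above for 0 (5.1% and 6.11%), KARPAS-422 below for 11 and above for 4 (11.1% and 11.1%) and HT below for 9 and above for 0 (1.69% and 2.68%). Pfeiffer lay below for 2 and above for 6 (7.53% and 8.86%), the 6 being DDIT4, CEBPB, PCK2, SLC1A4, ATF5 and SHMT2. Toledo lay above for 14 and below for 1, DDIT4 (1.79% and 3.12%), DB above for 9 and below for 0 (1.6% and 1.95%), and OCI-LY-19 above for 8 and below for 0 (1.37% and 1.47%). SU-DHL-6 lay above for 3 and below for 0 (2.65% and 1.83%), these being DDIT4, TRIB3 and DDIT3, and SU-DHL-4 above for 1, SLC38A2, and below for 0 (0.92% and 1.07%). The 10 contrasts share arrays and are not independent. With arrays at equal medians the count of Toledo was 6 in place of 15 and that of Pfeiffer 5 in place of 8. Leaving out 1 array of the line moved several counts by over 1.5 times: SU-DHL-10 went from 14 to 4 without SU-DHL-10 GSK126 replicate 2, 8 without SU-DHL-10 DMSO replicate 1 and 9 without SU-DHL-10 GSK126 replicate 1, HT from 9 to 3 without HT DMSO replicate 1, and KARPAS-422 from 15 to 9 without KARPAS-422 DMSO replicate 1. Pfeiffer went from 8 to 4 or 5 and OCI-LY-19 from 8 to between 3 and 5 without any 1 array, DB from 9 to 5 without DB DMSO replicate 2 and 4 without DB GSK126 replicate 1, and Toledo from 15 to 6 without Toledo DMSO replicate 1 and 8 without either second replicate. SU-DHL-4 went from 1 to 0 without SU-DHL-4 DMSO replicate 2 or either GSK126 array. Shares over all genes are not given here for this scaling and these leave-outs. Such changes in count therefore do not set the 32 genes apart from other genes.

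With the line as the replicate, the mean response of the 7 mutant lines was below 0 for 28 of the 32 genes (87.5%, against 40.9% of all genes). SLC1A5 (-0.60 ± 0.13, adjusted p = 0.0309) and SLC7A5 (-0.57 ± 0.14, adjusted p = 0.0417) were called by limma, both negative in 7 of 7 mutant lines, where 1.05% of all genes were called below 0 and 4.52% above. At an unadjusted p under 0.05, 20 of the 32 (62.5%) passed, against 25.1% of all genes. Both calls depended on the lines: neither was made without Pfeiffer, WSU-DLCL2, KARPAS-422 or SU-DHL-10, and 4 genes were called without DB. The count was 1 gene without SU-DHL-6, OCI-LY-19 or Toledo, 14 with arrays at equal medians, and 0 with the R tag of the labels, a possible batch of unstated meaning, as a block. Equal medians lowered the median change of all genes in the mutant lines except DB (0.04), from -0.02 in SU-DHL-4 to -0.23 in SU-DHL-10. Shares over all genes in these settings are not given here, so the 14 are not read as particular to these genes. Within R6, R7 and R8 the mean SLC7A5 change of the mutant lines was -0.49 (2 lines), -0.59 (4 lines) and -0.68 (1 line), and that of SLC1A5 was -0.86, -0.55 and -0.27.

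For the 3 wild type lines the mean was below 0 for 23 genes (71.9%, against 42.1% of all genes) and 0 were called by limma, 0 at an unadjusted p under 0.05, where 0% of all genes were called and 4.40% passed unadjusted. Among them TRIB3 had -0.67 ± 0.12 in HT, 0.31 ± 0.12 in OCI-LY-19 and 0.22 ± 0.12 in Toledo, and CHAC1 had -2.45 ± 0.33, -0.28 ± 0.33 and 0.02 ± 0.33. The mutant minus wild type difference was negative for 28 genes (87.5%, against 49.0% of all genes) and called for 0 (0 unadjusted, against 4.15% of all genes and a background of 0% called), with INHBE the farthest at -1.31 ± 0.61, TRIB3 at -0.61 ± 0.42, SLC7A5 at -0.29 ± 0.25 and DDIT4 positive at 0.63 ± 0.45. Regressed on log10 growth IC50, the response had a slope that was positive for 30 of the 32 genes (93.8%, against 46.4% of all genes), and 0 were called (background 0.00657%). At an unadjusted p under 0.05, 7 passed (21.9% against 9.58% of all genes): CBS, SLC1A5, SLC7A1, SLC6A9, PSPH, XPOT and SLC7A5. The slopes of CBS and SLC6A9 include dim signals. SLC6A9 lay above the array median on 4 arrays, and CBS had its lowest vehicle level, 5.75, in Toledo. Both had their highest change in Toledo, the line of highest IC50 (0.64 for CBS and 0.61 for SLC6A9), and neither was called there. The SLC1A5 slope was 0.36 ± 0.11 per unit of log10 IC50 (adjusted p = 0.400) and the XPOT slope 0.19 ± 0.08 (adjusted p = 0.498). R6, R7 and R8 hold 3, 5 and 2 lines, too few for a slope within each.

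The vehicle level of the 33 genes differed widely among lines, and the F-test over 10 lines called 31 of the 32 tested, NUPR1 excepted, where it called 84.6% of all genes. WSU-DLCL2 had the highest vehicle level of 15 of the 32 and SU-DHL-4 of 6, and the lowest level was found in SU-DHL-6 for 7, Toledo for 6 and OCI-LY-19 for 5. PHGDH had the widest range, from 4.98 on the log2 scale in SU-DHL-10 to 13.08 in WSU-DLCL2, with signals of 16.7 and 11.2 against 8909.8 and 8354. It was also low in SU-DHL-4 (5.39) and KARPAS-422 (6.09), intermediate in HT (9.42) and between 11.32 (DB) and 13.08 in the other 6 lines. JDP2 spanned 6.04 (HT 5.33, SU-DHL-6 11.36), CBS 5.80 (Toledo 5.75, SU-DHL-10 11.56) and CHAC1 5.54 (OCI-LY-19 6.00, WSU-DLCL2 11.54). In all, 9 genes spanned over 4 and 15 under 2 on this scale, ATF4 the least of the 32 at 0.59. PSAT1 was low in Toledo (10.76) and between 12.27 and 13.61 elsewhere. Levels were not compared between genes, since each probe set has its own brightness. Mutant minus wild type vehicle levels were positive for 25 of 32 genes (78.1%, against 48.8% of all genes) and called for 0 (3 at an unadjusted p under 0.05, 9.38% against 7.75% of all genes; background 0.0263% called in each direction), SLC1A4 having 0.89 ± 0.20 (adjusted p = 0.376). The SD over lines was smaller under GSK126 than under DMSO for 20 of the 32 genes, with a median of 0.674 against 0.752, a description that rests on the same lines in both arms. Shares over all genes were not computed for the SD, the spans or the highest and lowest lines. These counts therefore describe the 32 genes and do not set them apart from other genes.

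**Figure D4:**
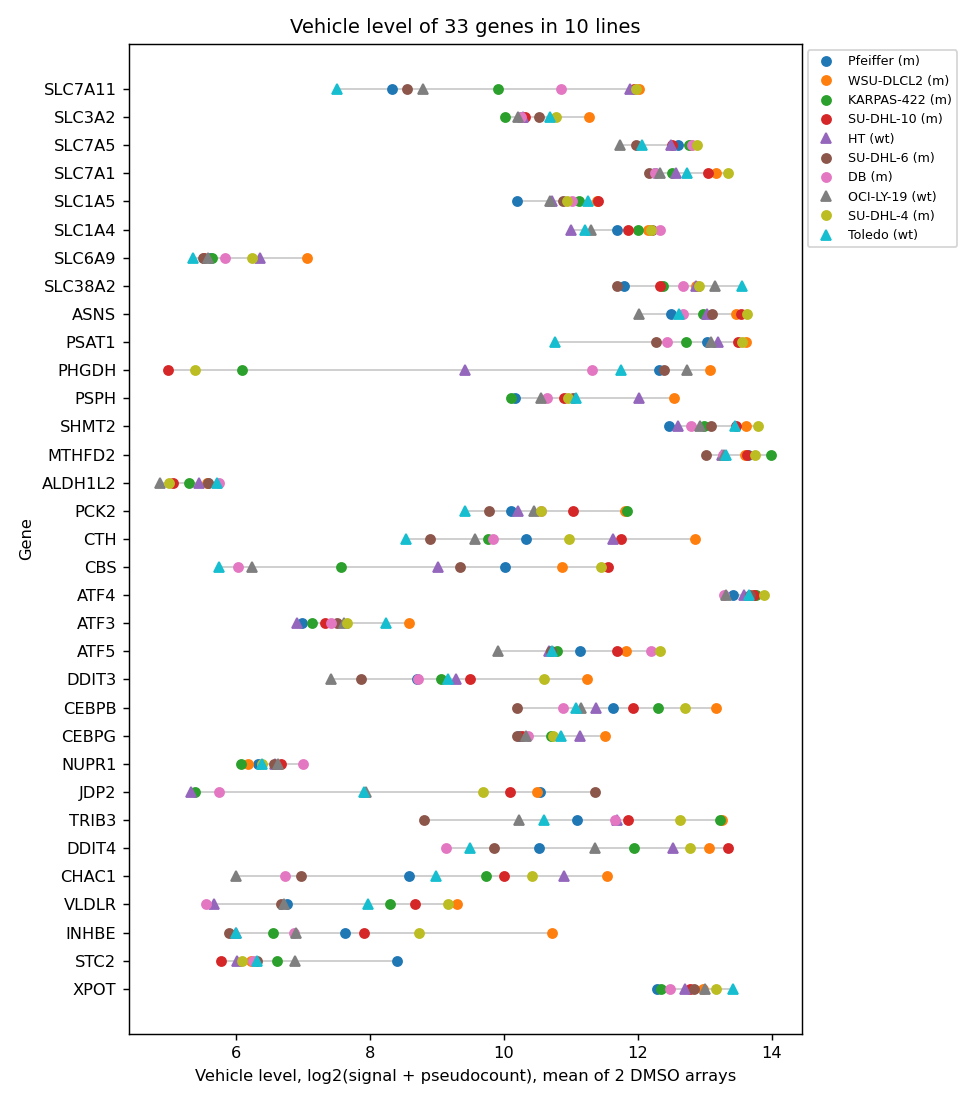
Vehicle level of each of the 33 genes in each line, as the mean log2(signal + pseudocount) of 2 DMSO arrays. Circles are mutant and triangles wild type lines, and grey bars join the lowest and highest line of a gene; levels of different genes are not comparable. PHGDH spans from 4.98 to 13.08 and ATF4 only from 13.29 to 13.88.

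Other parts of the pathway were followed with lists of 15 or fewer genes each. Of 11 tRNA synthetases tested, enzymes that load amino acids on tRNAs and include ATF4 targets, 51 of 110 pairs fell (46.4%) and 0 rose (limma, 1 at an unadjusted p under 0.05). All 11 fell in WSU-DLCL2, 9 in KARPAS-422, 10 in HT, 8 in SU-DHL-10, 5 in SU-DHL-4, 4 in Pfeiffer and SU-DHL-6, and 0 in DB, OCI-LY-19 and Toledo. YARS1, for tyrosine, fell in 7 lines, from -0.59 ± 0.08 in KARPAS-422 to -0.24 ± 0.08 in SU-DHL-6, and AARS1, for alanine, and SARS1, for serine, in 6 lines, with -0.84 ± 0.10 in HT and -0.58 ± 0.06 in WSU-DLCL2. Over all genes tested, 5.13% of pairs fell and 7.55% rose, which is the background for each list. Further ATF4 targets were mixed, 23 of 140 pairs fallen (16.4%) and 15 risen (10.7%). VEGFA, an angiogenic growth factor, fell in 5 lines (-1.66 ± 0.15 in KARPAS-422) and rose in SU-DHL-6 (0.47 ± 0.15), GADD45A, a stress and growth arrest gene, rose in 4 (2.87 ± 0.12 in KARPAS-422) and fell in WSU-DLCL2 (-0.44 ± 0.12), and MAP1LC3B, an autophagosome protein, fell in 5. The kinases, phosphatase subunits and exchange factor around eIF2 fell in 16 of 140 pairs (11.4%) and rose in 8 (5.71%). EIF2AK4, the kinase GCN2 that senses uncharged tRNA, rose in HT (0.43 ± 0.11), SU-DHL-10 (0.46 ± 0.11) and SU-DHL-6 (0.34 ± 0.11) and fell in Pfeiffer (-0.34 ± 0.11), while EIF2B3, of the exchange factor, and EIF2S1, the phosphorylated subunit, each fell in 4 lines. Genes of the unfolded protein response of the endoplasmic reticulum fell in 32 of 150 pairs (21.3%) and rose in 14 (9.33%). EDEM1, which targets misfolded glycoproteins for degradation, fell in 6 lines (-0.83 ± 0.08 in SU-DHL-10), the chaperone cofactor DNAJC3 fell in 5, and calreticulin, CALR, rose in WSU-DLCL2, SU-DHL-10 and SU-DHL-4 (0.69, 0.51 and 0.64) and fell in KARPAS-422 and SU-DHL-6 (-0.22 and -0.32). Of 6 NRF2 targets, antioxidant genes, 14 of 60 pairs fell (23.3%) and 5 rose (8.33%), GCLM, of glutathione synthesis, falling in 7 lines (to -0.71 ± 0.06 in KARPAS-422), the quinone reductase NQO1 in 3 with 2 rises, and the thioredoxin reductase TXNRD1 in 3. MARS1 and GPT2 were not analysed here.

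**Figure D5:**
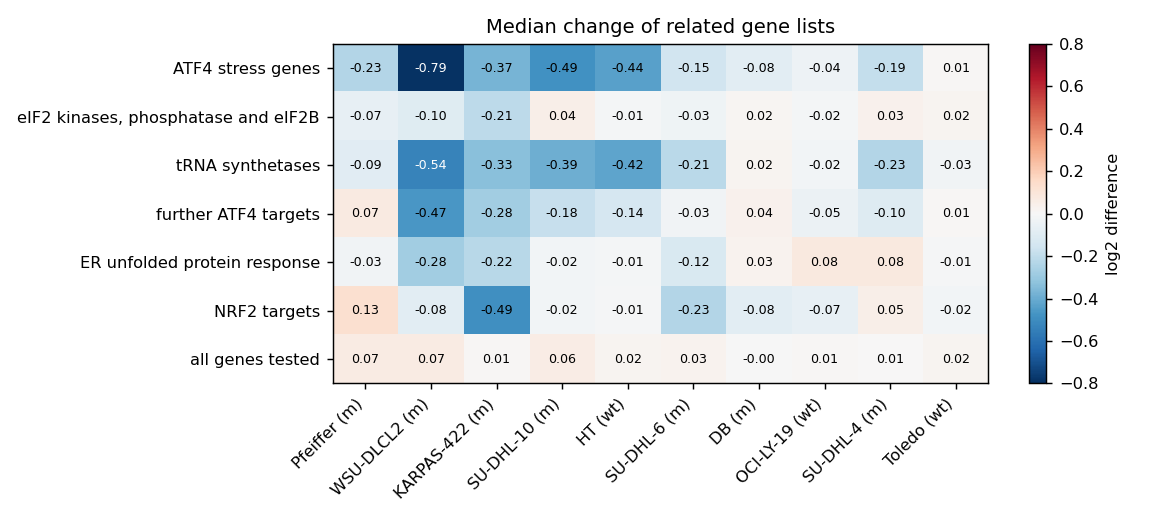
Median log2 change under GSK126 of the 32 ATF4 stress genes, 5 related lists and all genes tested, in 10 lines by rising growth IC50, with the value printed in each cell. The lowest median is that of the ATF4 stress genes in WSU-DLCL2 (-0.79), and the tRNA synthetases have -0.54 there.

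Lineage markers were read beside these results. Of the B cell markers MS4A1, CD79A, CD79B and PAX5, 11 of 40 pairs rose (27.5%) and 1 fell (2.5%), against 7.55% and 5.13% over all genes tested, with a summed signal of 17523 to 46570.5 under DMSO and 18217 to 52317 under GSK126. MS4A1, which encodes CD20, was at 5.64 on the log2 scale in OCI-LY-19 and at 12.34 or more in the other 9 lines under DMSO. CD79A was at 8.73 in Pfeiffer and at 11.07 or more in the other 9 lines, whereas PAX5 was at 11.74 or more in every line. Markers of T and NK cells gave 0 calls in 50 pairs (limma, 3 rises at an unadjusted p under 0.05) and stromal and epithelial markers 0 in 50 (4 rises unadjusted). Their summed signals spanned 193 to 13320 and 314 to 13763 under DMSO, and 205 to 15902 and 424 to 10822 under GSK126, the highest values being CD8A and EPCAM in Pfeiffer. The T cell markers CD3D and CD3G were at 12.34 and 11.84 in KARPAS-422 under DMSO. In the other 9 lines they were at 6.02 or less and 5.41 or less. Of 3 myeloid markers (summed signal 114 to 392 and 71.0 to 324), LYZ rose in SU-DHL-10 (1.54 ± 0.45) and CSF1R and ITGAM fell in KARPAS-422, and of 4 erythroid and endothelial ones (259 to 598 and 274 to 628) PECAM1 rose in WSU-DLCL2. The part of these markers in the results was not tested. The 3′ to 5′ log2 signal difference of GAPDH changed by -0.08 to 0.05 and that of ACTB by -0.04 to 0.08 between treatments.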

How the data were processed

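RNA from 10 lymphoma lines under DMSO or GSK126 was read on 40 1-colour Affymetrix arrays, 2 in each of 20 groups. The authors deposited log2 signals per probe set, scaled to a trimmed mean near 500 (499.9 on the linear scale) and made with MAS5 per the submitters' processing notes (version not given in the sources used here). Values were taken back to linear signal, 17.7 was added (the median over arrays of each array's 25th percentile), and log2 was taken again. Of 54675 probe sets, 41091 had 1 gene symbol in the platform annotation, 1801 had several and 11721 none. A gene was represented by its probe set of highest mean on that log2 scale and tested if that lay above the array median on at least 2 arrays.

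Group means were fitted with limma 3.58.1 (R 4.3.3) with an intensity trend, 20 residual and 6.98 prior degrees of freedom, and Benjamini-Hochberg adjustment over 15211 genes. Mutant, wild type and IC50 results used 1 response per line. The fit was tested on simulated data. Figures were drawn with matplotlib 3.10.9. The number of arrays limits the precision.

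The genes and lists were chosen with earlier results of these data known. Values on every array are given for the gene called in the most lines in each of the 4 gene groups, the next in groups of over 5 tested genes, and the gene with the largest called change in each line. Of each other list at most 3 genes are named, those called in the most lines; other genes are given by their called changes. Same-numbered replicates did not deviate together (correlations -0.04 to 0.07), so numbers were not used as pairs. Alternatives were other scalings, pseudocount, filters, probe set averaging, no trend, lines fitted alone, a replicate block, the R tag of the labels as a block, and each array or line left out.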

Additional observations from a re-analysis of the deposited data

Results flagged for a closer look

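Each of the 32 genes was examined over the 7 mutant lines for a response or a vehicle level whose gap to the nearest other line, divided by the range, passed Dixon's critical value of 0.568. Of 64 such values 10 passed. Chance marks about 1 in 20 where values are independent and normally distributed. The share over all genes tested was not computed, so the count is not read as high or low.

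Among responses, SLC3A2 had -1.61 in WSU-DLCL2 against -0.65 to -0.00 in the other mutant lines. CEBPG had -1.54 in WSU-DLCL2 against -0.68 to -0.11. MTHFD2 had -0.45 in SU-DHL-10 against -0.21 to -0.07. ATF4 had -0.71 in KARPAS-422 against -0.23 to -0.03, and JDP2 had 2.05 there against -0.35 to -0.04.

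Among vehicle log2 levels, 3 were high in WSU-DLCL2: PSPH at 12.54 against 10.11 to 11.03, ATF3 at 8.57 against 6.98 to 7.65, and CEBPG at 11.51 against 10.19 to 10.74. SLC7A5 was low in SU-DHL-6 at 11.97 against 12.51 to 12.88, and STC2 was high in Pfeiffer at 8.41 against 5.77 to 6.61.

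Responses different from the mean of the other 9 lines were called by limma, with shares of all genes below and above it in brackets. Of the 32 genes, 20 were called in WSU-DLCL2 (9.97% and 8.28%), 15 in Toledo (3.12% and 1.79%) and 14 in SU-DHL-10 (5.1% and 6.11%). Counts were 15 in KARPAS-422 (11.1% and 11.1%), 9 in DB (1.95% and 1.6%), 9 in HT (1.69% and 2.68%) and 8 in OCI-LY-19 (1.47% and 1.37%). They were 8 in Pfeiffer (7.53% and 8.86%), 3 in SU-DHL-6 (1.83% and 2.65%) and 1 in SU-DHL-4 (1.07% and 0.92%). In Toledo 14 of the 15 lay above that mean, while 0 of the 32 had a called change in Toledo itself.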

How the results depend on the processing

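Of the 109 called pairs of gene and line, 105 stayed called in the same direction with arrays at equal medians, 99 after quantile normalization, 104 with a pseudocount of 1, 101 with no filter, 93 with the mean of all probe sets, 98 with no intensity trend, 91 with each line fitted alone and 103 with a replicate block. One reversed: SLC7A1 in SU-DHL-6 was 0.034 with the mean of all probe sets, which includes a dim probe set that changed by 0.78. The count of called genes in SU-DHL-6 was 15 with equal medians, 3 with no trend and 2 when the line was fitted alone. In DB it was 2 with quantile normalization, averaged probe sets or no trend. Fitted alone, OCI-LY-19 had 0 and SU-DHL-4 had 2. With a replicate block the counts of the 10 lines by IC50 were 13, 22, 19, 19, 22, 5, 1, 1, 3 and 0.

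For a line against the other 9, equal medians gave 5 in Pfeiffer, 6 in Toledo and 0 in SU-DHL-4, which also had 0 with no filter or averaged probe sets. Averaged probe sets gave 5 in SU-DHL-6 and 13 in OCI-LY-19. The mutant mean had 14 calls with equal medians, 1 each with quantile normalization, a pseudocount of 1 or no filter, 9 with genes above the median on at least 20 arrays, 5 with averaged probe sets and 0 with the R tag as a block. For the settings in this paragraph, shares over all genes are not given here.

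Leaving out 1 array, counts ranged from 14 to 21 in HT, 3 to 5 in SU-DHL-6, 0 to 2 in DB, 0 to 1 in OCI-LY-19 and 1 to 6 in SU-DHL-4. Against the other 9 lines, an alternative chosen after seeing the data, they ranged from 4 to 5 in Pfeiffer, 9 to 13 in KARPAS-422, 4 to 10 in SU-DHL-10, 3 to 12 in HT, 4 to 8 in DB, 3 to 5 in OCI-LY-19, 0 to 1 in SU-DHL-4 and 6 to 10 in Toledo. Leaving out 1 line gave 0 to 4 calls in the mutant mean. Of 436 leave-outs of an array from a called pair, 367 kept the call. In HT, SU-DHL-6, DB, OCI-LY-19 and SU-DHL-4, leaving out 1 array also lowered the number of calls over all genes tested. For leave-outs against the other 9 lines, shares over all genes are not given here. The cause of these changes in count was not tested. Genes near or below the array median, such as SLC6A9, NUPR1 and STC2, have imprecise changes.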
